A study of Mus musculus with 6 samples.

Results

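The Z-disc genes described here are 9 genes for proteins that anchor, cap or surround the thin filaments at the boundary of the sarcomere: Actn2, Actn3, Tcap, Ldb3, Myoz1, Myot, Csrp3, Xirp1 and Des. They were followed in C2C12 cells, a mouse myoblast line that forms multinucleate myotubes in low serum, through every non-control probe whose RefSeq accession belongs to one of the 9 symbols. They are 9 of 20659 named genes with a probe, and 10 of 39429 probes, since Ldb3 has 2 probes and each of the other 8 genes has 1. Total RNA (1 µg per sample) was labelled with Cy3 and hybridised to Agilent arrays, and data were given for 6 arrays, 3 per group. Every culture was grown in 10% fetal bovine serum, transfected and then kept in 2% horse serum for 2 days of differentiation. The control cultures received si-NC, a control small interfering RNA, and the others si-SYISL, which is directed against SYISL, a long non-coding RNA. The comparison therefore asks how transcripts of these genes differ in differentiating muscle cells after treatment against SYISL. Both groups are the same cell line, and the sequences and doses of the small interfering RNAs were not given in the sources used here.

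The Z-disc is the lattice of alpha-actinin that crosslinks thin filaments of neighbouring sarcomeres and holds the ends of titin. Telethonin caps titin there, PDZ-LIM and myozenin proteins dock on alpha-actinin and tie it to signalling enzymes such as calcineurin, and desmin filaments join neighbouring Z-discs. Desmin is made early in myoblasts, whereas most of the structural Z-disc genes are switched on as myotubes form. Many muscle genes are activated through E-boxes, MEF2 sites and CArG boxes. The MyoD family binds E-boxes, as do other factors, while MEF2 factors bind MEF2 sites and serum response factor binds CArG boxes.

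Promoters were at hand in the RefSeq table of build GRCm38.p6 for 4 of the 9 genes. They are shown because Actn2 and Ldb3 lay at opposite ends of the members' differences, with Csrp3 and Des between them. Each line holds the 250 bases before the annotated start, read 5′ to 3′ on the gene's strand. Capitals mark E-boxes (CANNTG, which reads the same on both strands) in Actn2, Csrp3 and Des and the CArG box in Ldb3.

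Actn2 (chr13:12340733-12340982, minus strand): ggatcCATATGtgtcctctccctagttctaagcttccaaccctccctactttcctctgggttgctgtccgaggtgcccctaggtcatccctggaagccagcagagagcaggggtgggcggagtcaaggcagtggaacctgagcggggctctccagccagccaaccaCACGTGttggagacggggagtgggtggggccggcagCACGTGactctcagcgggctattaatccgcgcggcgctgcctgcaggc
Ldb3 (chr14:34588682-34588931, minus strand): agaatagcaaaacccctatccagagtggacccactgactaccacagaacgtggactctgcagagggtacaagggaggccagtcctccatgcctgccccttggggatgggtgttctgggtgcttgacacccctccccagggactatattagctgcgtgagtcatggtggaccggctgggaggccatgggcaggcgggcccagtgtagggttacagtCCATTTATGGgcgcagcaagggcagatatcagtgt
Csrp3 (chr7:48848052-48848301, minus strand): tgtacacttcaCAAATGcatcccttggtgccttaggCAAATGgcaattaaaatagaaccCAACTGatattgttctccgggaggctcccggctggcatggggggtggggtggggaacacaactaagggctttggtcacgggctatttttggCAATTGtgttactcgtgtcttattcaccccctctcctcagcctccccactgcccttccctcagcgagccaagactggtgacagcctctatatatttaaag
Des (chr1:75360042-75360291, plus strand): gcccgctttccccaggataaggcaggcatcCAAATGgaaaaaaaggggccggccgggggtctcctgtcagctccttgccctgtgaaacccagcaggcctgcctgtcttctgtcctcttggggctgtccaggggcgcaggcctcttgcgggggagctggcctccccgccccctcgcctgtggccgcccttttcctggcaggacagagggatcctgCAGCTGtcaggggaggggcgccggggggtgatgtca

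The Actn2 window held 3 E-boxes, the first bases of which lay at -245, -84 and -48 from the start. The Des window held 2, at -220 and -36, and the Csrp3 window 4, at -239, -214, -191 and -100. The Ldb3 window held no E-box and 1 CArG box at -35. A second annotated Ldb3 start lies 74 bases away, and the same CArG box stands at -109 from it. A second Csrp3 window (chr7:48843672-48843921) also held 4 E-boxes. No E-box overlapped a CArG box or MEF2 site. None of the 6 windows matched the MEF2 site or TATAAA on either strand. Over all 32851 promoters of this length, 66.2% held at least 1 E-box, 31.8% at least 2, 12.2% at least 3 and 3.84% at least 4. A CArG box was found in 1.47%, a MEF2 site in 2.92% and TATAAA in 12.4%. These matches describe letters in a window and carry no measurement of binding. The E-box search did not tell sites of the MyoD family from those of other factors.

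Each array held 43020 non-control spots, with no saturation. Signal was well above background at 78.2% to 84.6% of spots in si-NC and at 87.9% to 90.6% in si-SYISL. Within each group, replicates 1 and 3 were closer than repeated spots of one probe allow to be told apart. Their squared difference over that noise was 0.226 per probe in si-NC and 0.153 in si-SYISL, against 27.6 to 185 in the other 13 pairs of arrays (340 probes with repeated spots). Their 3400 repeated spots also deviated together, with a correlation of 0.93 in both pairs against 0.32 to 0.61 in the others. Replicates 1 and 3 were therefore averaged and counted as 1 sample, which leaves 2 samples per group. The labels do not say whether replicates came from separate cultures, or whether replicates 1 and 3 were separate hybridisations. The p-values reflect the spread among these samples alone, which may be technical. Replicates 1 and 2 of both groups shared a scan, and replicate 3 of both groups belonged to another. No probe was paired with the SYISL symbol, so the loss of SYISL could not be read from these arrays.

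All 9 markers fixed for myoblasts and myotubes were well above background on every array, and their summed scaled signal was 85912 and 75569 under si-NC against 107750.2 and 115135 under si-SYISL. Of these 9, 4 were above and 5 below the median of all features (list median -0.02), and Myh3 and Acta1 made up most of the sum in both groups. The 7 markers of proliferating, undifferentiated cells were also all present, and 6 of them were below the median of all features (list median -0.36). Their summed signals were 30180 and 37430.4 in si-NC and 30629.9 and 26255 in si-SYISL. Markers of other cell types were well above background on every array for 1 of 4 adipocyte genes (Lep on no array), 3 of 3 immune genes with a probe, 2 of 3 endothelial, 4 of 4 neural or glial and 2 of 3 smooth muscle genes. Their list medians ran from -0.28 for immune to 0.07 for neural and glial genes. The adipocyte median was -0.03, the endothelial 0.02 and the smooth muscle 0.06. Their summed signals were 118 and 133 against 118 and 170.4 (si-NC against si-SYISL) for adipocyte, 1173 and 1145 against 1022 and 1088 for immune, and 2528 and 2334 against 2699 and 2786 for endothelial genes. They were 1059 and 1147 against 1023 and 1198 for neural and glial genes and 163364 and 153925 against 179886 and 190971 for smooth muscle genes. Acta2 made up most of the smooth muscle sum, with means of 158376 in si-NC and 185201 in si-SYISL. Relative to the median of all features, Acta2 differed by 0.06, Myh11 by 0.46 and Cnn1 by -0.87. In bulk RNA, fewer cells of a type and less RNA per cell cannot be told apart, and the part of these markers in the results below was not tested.

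Scaled signals below are intensities divided by each array's 75th percentile and returned to one common scale. They can be compared between arrays for one probe, but not between probes. Where single arrays are described below, replicates 1 and 3 of a group are near copies and count once. Differences are log2 values, si-SYISL minus si-NC, with the standard error (SE) of limma's fit over 2 samples per group. The median of all 28555 tested features was itself 0.16 higher in si-SYISL (0.03 under quantile normalisation), and each difference is given relative to that median. The p-values belong to the unsubtracted difference and are adjusted by the Benjamini-Hochberg method over all features.

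Actn2, Tcap and Myoz1 had the highest differences among the measured Z-disc genes, and Ldb3 at its brighter probe had the lowest. No Z-disc gene passed an adjusted p of 0.05, and neither did any other feature (0% of 28555). Of the 8 measured members, 3 had an unadjusted p under 0.05 with a higher signal in si-SYISL (limma), where 16.8% of all features did, and 0 had one with a lower signal, where 5.85% did. The 3 were Actn2, Tcap and Myoz1, of which Actn2 entered only through its si-SYISL arrays, and among the 7 members well above background on every array the higher count was 2. Before the median was subtracted, both si-SYISL samples were above the control samples for 5 members (46.3% of all features). Both were below for 1 member, Ldb3 (15.8%), and the 2 that overlapped were Actn3 and Des. After subtraction, Actn2, Tcap and Myoz1 stayed above and Ldb3 below, Actn3 and Csrp3 also lay below, and Xirp1 and Des overlapped. The share of all features was not counted on that scale. The members' median difference was 0.12, with 4 above and 4 below the median of all features, and it was -0.03 over the 7 members well above background on every array. Their middle range ran from -0.10 to 0.52, against -0.20 to 0.20 over all features. Myot did not pass the filter on dim probes and is not among these 8.

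**Figure D1:**
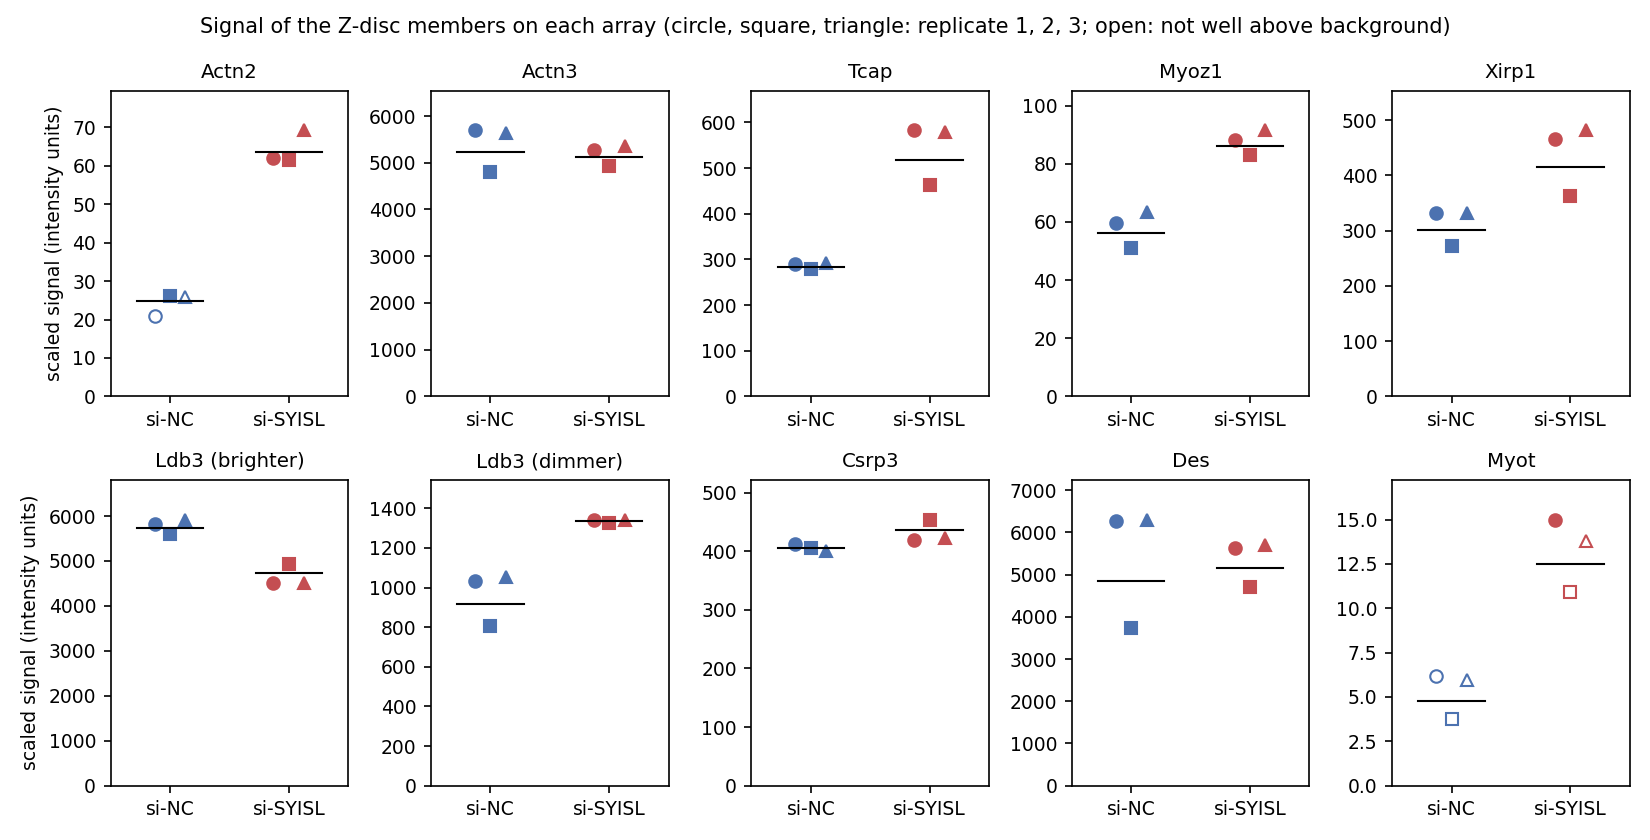
Scaled signal of each Z-disc probe on every array in intensity units, each panel with its own axis starting at 0. Circles, squares and triangles are replicates 1, 2 and 3, open symbols were not well above background, and lines are group means over 2 samples. The 3 si-SYISL arrays sit above the 3 si-NC arrays for Actn2 (62.1, 61.5 and 69.2 against 20.9, 26.2 and 25.9) and for Tcap, and the groups overlap for Actn3 and Des.

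Actn2 encodes the alpha-actinin of all striated muscle fibres, the main crosslinker of the Z-disc. Its probe (A_51_P108266) gave scaled signals of 20.9, 26.2 and 25.9 on si-NC replicates 1, 2 and 3 and of 62.1, 61.5 and 69.2 on the si-SYISL replicates. Both si-SYISL samples were above both si-NC samples, with replicates 1 and 3 of each group counted as 1 sample. The si-NC level was close to the limit of detection: the probe was well above background on 1 of 3 si-NC arrays and on 3 of 3 si-SYISL arrays, and so passed the filter on dim probes only through the group where it was higher. With that limit on its size, the fitted difference was 1.20 ± 0.12 (SE, 2 samples per group; 95% interval 0.87 to 1.53), with group means of 24.7 and 63.5 and an adjusted p of 0.0842. No feature had a smaller adjusted p, although others shared it.

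Before the median was subtracted, the Actn2 fold was 2.57. It was 2.48 with si-NC replicate 1 raised from 20.9 to 24, the dimmest signal accepted as above background on that array. Replicate 3 of si-NC, also not well above background, was left at 25.9, since the dimmest accepted signal there was 25.2. The value of 2.48 therefore does not bound the fold. From median pixel intensities with normexp correction (offset 50), in place of the processed signal, the difference was 0.32 with an adjusted p of 0.225. That offset is added to every intensity, so it shrinks the log2 difference of any probe this dim. Under quantile normalisation the difference was 1.01. Dim features as a class were higher in si-SYISL: before subtraction, the median difference was 0.36 in the dimmest of 4 equal brightness classes, 0.17 and 0.07 in the next, and 0.08 in the brightest. Actn2 lay 1.00 above the median of its own class, the dimmest. The part of brightness and background in its difference was not tested beyond these values.

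Actn3 encodes the alpha-actinin of fast fibres. Its signals were 5692, 4812 and 5635 in si-NC and 5277, 4925 and 5365 in si-SYISL. The groups overlapped, with si-NC replicate 2 the lowest array and the other si-NC arrays the highest. The difference was -0.19 ± 0.14 (95% interval -0.56 to 0.18, adjusted p = 0.906). The Actn2 difference was 1.39 above that of Actn3 on the log2 scale, with the si-NC level of Actn2 near background. Under normexp, the offset of which shrinks differences at dim probes such as that of Actn2, the values were 0.32 for Actn2 and -0.15 for Actn3. An exact permutation test of the gap cannot pass with 2 against 2 samples, where 0.333 is the smallest two-sided p.

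Tcap encodes telethonin, the cap that joins a pair of titin molecules at the Z-disc. It gave 290.2, 278 and 292 in si-NC and 583, 463.5 and 578.5 in si-SYISL. All si-SYISL arrays were above all si-NC arrays, and si-SYISL replicate 2 was the lowest of its group. The difference was 0.70 ± 0.15 (95% interval 0.29 to 1.12), a 1.82-fold ratio of means before subtraction, with an adjusted p of 0.123. It was 0.51 without si-SYISL replicates 1 and 3 and 0.91 without si-SYISL replicate 2.

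Myoz1 encodes a myozenin of fast muscle that binds alpha-actinin and calcineurin. Its signals were 59.8, 51.2 and 63.3 in si-NC and 88.1, 83.0 and 91.5 in si-SYISL. The groups did not overlap, and replicate 2 was the lowest array of both. The difference was 0.46 ± 0.14 (95% interval 0.07 to 0.85, adjusted p = 0.144). Myoz1 shared the dimmest brightness class with Actn2 and lay 0.26 above that class's median. With normexp correction, the offset of which shrinks differences at dim probes, the Myoz1 difference was 0.28.

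Ldb3 encodes Cypher, also called ZASP, a PDZ-LIM protein made in several isoforms that docks on alpha-actinin. Its 2 probes carry different RefSeq transcript accessions and went opposite ways. The brighter one (A_65_P11603, NM_011918) gave 5831, 5599 and 5919 in si-NC and 4511, 4936.5 and 4518 in si-SYISL, so that every si-SYISL array was below every si-NC array. The dimmer one (A_51_P265348, NM_001039076) gave 1031, 807 and 1056 in si-NC and 1343, 1325 and 1343 in si-SYISL, all above the control arrays.

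The brighter Ldb3 probe, which stood for the gene, differed by -0.44 ± 0.12 (95% interval -0.76 to -0.13). Before subtraction of the median its difference was -0.28, with an adjusted p of 0.246. The dimmer probe differed by 0.38 ± 0.17 (95% interval -0.07 to 0.82; adjusted p = 0.185 in a fit of every probe). The mean of the 2 probes differed by -0.03. Within each array, the log2 ratio of the dimmer to the brighter probe was -2.50, -2.79 and -2.49 in si-NC and -1.75, -1.90 and -1.75 in si-SYISL. The ratio was higher on every si-SYISL array, by 0.82 (SD 0.21 in si-NC and 0.10 in si-SYISL, n = 2; exact permutation p = 0.333, the smallest possible). It shows unequal change at the 2 probes and does not give the share of any isoform.

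Myot encodes myotilin, which binds alpha-actinin and filamin. Its probe gave 6.19, 3.74 and 5.98 in si-NC and 15.0, 10.9 and 13.8 in si-SYISL. It stood well above background on 0 of 3 si-NC and 1 of 3 si-SYISL arrays, so no fold or test is given.

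Csrp3 encodes muscle LIM protein, found at the Z-disc and in the nucleus of striated muscle cells. Its signals were 413, 406.1 and 400.7 in si-NC and 419, 454 and 423 in si-SYISL. The arrays lay in a narrow band with the si-SYISL arrays just above it. The difference was -0.06 ± 0.11 relative to all features (95% interval -0.36 to 0.24, adjusted p = 0.567), and 0.11 before the median was subtracted. Its sign turned under quantile normalisation (0.02) and in the authors' own log2 values (0.01).

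Xirp1 encodes Xin, an actin-binding repeat protein of striated muscle. It gave 332.5, 273 and 333 in si-NC and 467, 363 and 481.5 in si-SYISL. All si-SYISL arrays were above the controls before subtraction, and replicate 2 was the lowest array of both groups. The difference was 0.30 ± 0.19 (95% interval -0.22 to 0.82, adjusted p = 0.248). It moved with the samples kept, and was 0.07 without si-SYISL replicates 1 and 3, 0.18 without si-NC replicate 2 and 0.54 without si-SYISL replicate 2.

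Des encodes desmin, the intermediate filament that links Z-discs to each other and to the cell membrane. Its probe is printed 10 times on each array. The mean signals were 6268, 3727 and 6301 in si-NC and 5631, 4698 and 5695 in si-SYISL. Replicate 2 was low in both groups, and the si-SYISL arrays lay inside the si-NC range. The difference was -0.07 ± 0.29 (95% interval -0.85 to 0.71, adjusted p = 0.850). The SD over the repeated spots of one array was only 0.056 to 0.093 on the log2 scale, while the arrays of si-NC spanned 3727 to 6301. The sign was reversed, at 0.30, without si-NC replicates 1 and 3, and at 0.11 without si-SYISL replicate 2.

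**Figure D2:**
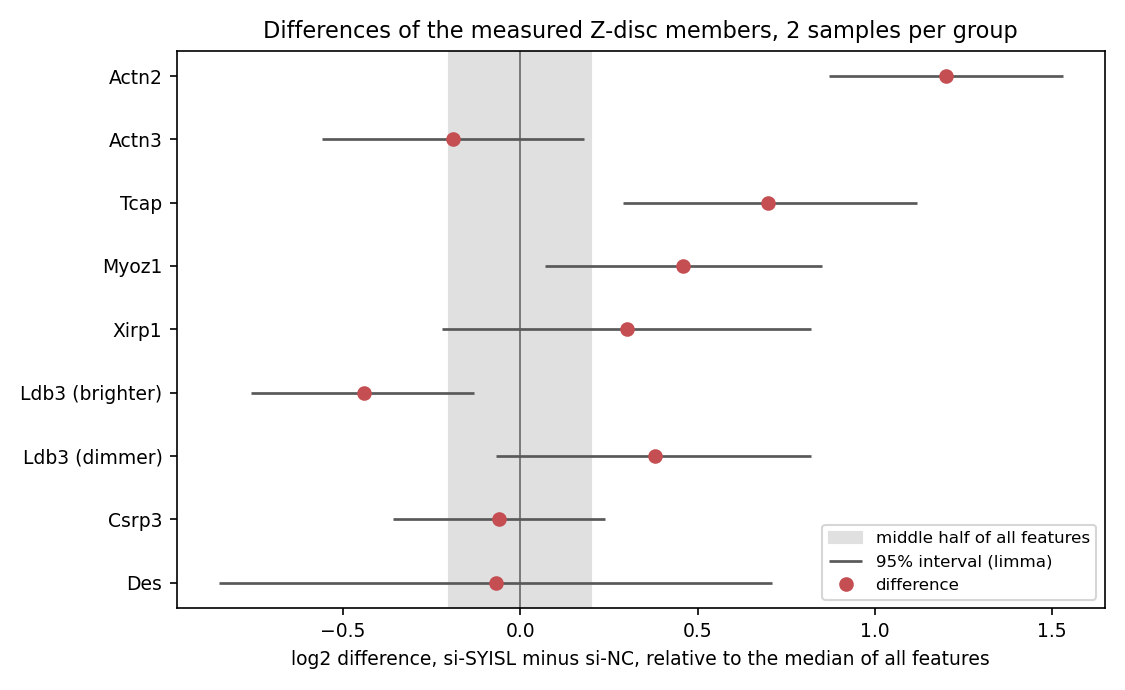
Log2 difference of each measured Z-disc gene (points; both Ldb3 probes) relative to the median of all features, with limma's 95% interval over 2 samples per group. The grey band spans the middle of all 28555 features, -0.20 to 0.20. Tcap (0.70) and Myoz1 (0.46) lie above the band with intervals above 0, and the Ldb3 probes lie on opposite sides. Actn2 (1.20) also lies above the band. It passed the filter on dim probes only through the group where it was higher, which limits what its interval shows.

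The members were also compared within each of the 2 scans. In the first, which held replicates 1 and 2 of both groups, Actn2 differed by 1.24, Tcap by 0.71 and Myoz1 by 0.47. In the second, which held 1 array of each group, they differed by 1.32, 0.89 and 0.44. The brighter Ldb3 probe gave -0.44 and -0.49 and the dimmer one 0.39 and 0.25. Xirp1 gave 0.29 and 0.44, Actn3 -0.20 and -0.17, Csrp3 -0.07 and -0.02, and Des -0.07 and -0.24. Each member therefore kept its sign in both scans, although the arrays of the second scan are those that could not be told apart from replicate 1.

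**Figure D3:**
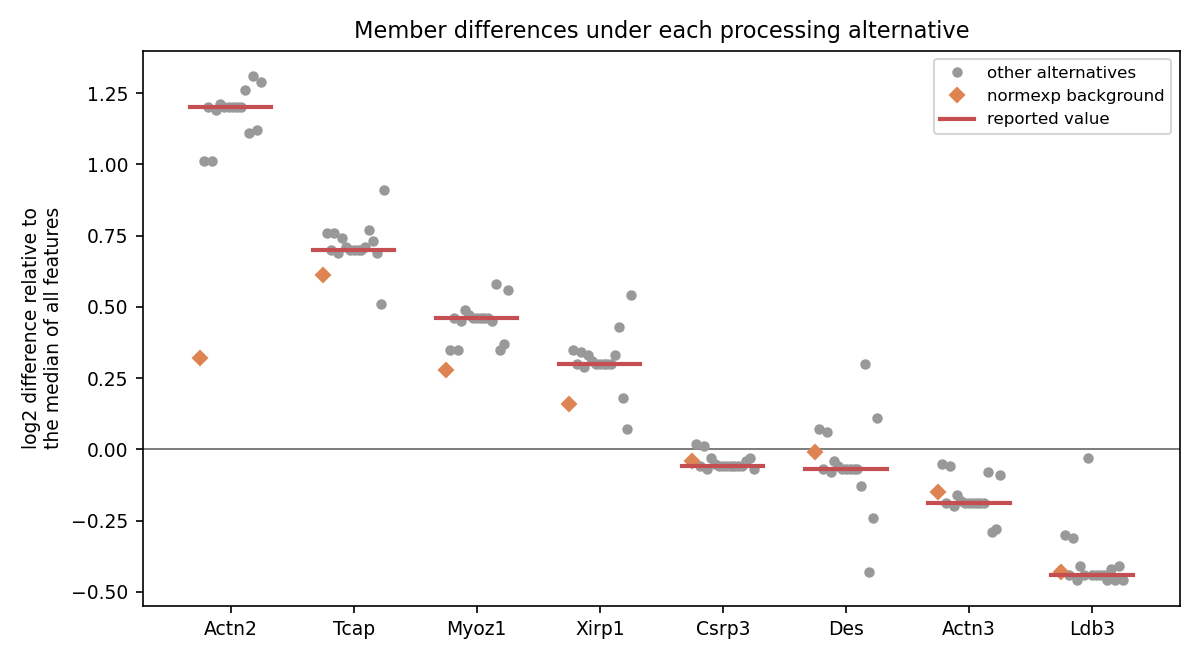
Log2 difference of each measured member relative to the median of all features (vertical axis) under each processing alternative (points, with normexp background correction as diamonds) and as reported (lines). Actn2 spans 0.32 to 1.31 and Tcap 0.51 to 0.91, and Csrp3 and Des lie on both sides of 0. Tcap was above 0 throughout. Actn2 was above 0 wherever it was tested, but could not be tested with the filter on every array. Its lowest value is that under normexp, the offset of which shrinks differences at dim probes.

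Another 41 genes of the Z-disc and its surroundings were all measured, and 0 of them passed the adjusted threshold. With limma, 9 had an unadjusted p under 0.05 with a higher signal in si-SYISL (16.8% of all features) and 6 with a lower one (5.85%). Before the median was subtracted, both si-SYISL samples lay above the controls in 18 (46.3% of all features) and below in 13 (15.8%), and 10 overlapped. Their median difference was -0.05, with 16 above and 25 below the median of all features.

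Among the filament-binding proteins, Neb encodes nebulin, the giant protein along the thin filament. It had signals of 2598, 1948 and 2506 in si-NC and 4966, 5016 and 5151 in si-SYISL, with no overlap. Its difference was 1.01 ± 0.17 (adjusted p = 0.107), while a dimmer Neb probe differed by 0.03. Xirp2, a relative of Xirp1, had 438, 427 and 429.5 in si-NC and 245, 249 and 240.2 in si-SYISL. The si-SYISL arrays were all lower, by -0.97 ± 0.11 (adjusted p = 0.102), where Xirp1 differed by 0.30. Capza2, a subunit of the protein that caps thin filaments at the Z-disc, had means of 21018 in si-NC and 12303 in si-SYISL and differed by -0.94 ± 0.14 (adjusted p = 0.124).

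Among proteins that bind titin or alpha-actinin, Ankrd2, a stretch-responsive ankyrin repeat protein, had 333, 289 and 360.1 in si-NC and 653, 641 and 652 in si-SYISL. It was higher on every si-SYISL array, by 0.87 ± 0.14 (adjusted p = 0.102). Mypn (myopalladin) differed by 0.67 ± 0.14 (adjusted p = 0.121). Myoz2, the myozenin of heart and slow fibres, differed by 0.55 ± 0.13 (adjusted p = 0.125), next to 0.46 for Myoz1. The alpha-actinins of non-muscle cells had smaller values than Actn2, the si-NC level of which was near background. Actn4 differed by 0.18 ± 0.11 (adjusted p = 0.185) and Actn1 by 0.05 ± 0.13 (adjusted p = 0.345). The Actn1 value turned to -0.04 without si-SYISL replicates 1 and 3 and to -0.01 without si-NC replicate 2. Under normexp the values were 0.32 ± 0.15 for Actn2, 0.19 ± 0.13 for Actn4 and 0.12 ± 0.15 for Actn1. The normexp offset shrinks differences at dim probes, here that of Actn2, so this setting cannot compare these genes.

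Fhl1 and Sorbs2 had the lowest differences of the 41 and are named after their values were seen. Fhl1 encodes a LIM-domain protein of muscle. Its signals were 963, 2819.5 and 926 in si-NC and 68.2, 302 and 69.7 in si-SYISL. The si-SYISL arrays were all lower, but each group was itself spread over several fold, with replicate 2 high in both. The difference was -3.66 ± 0.90 (adjusted p = 0.157). It was -2.63 without si-SYISL replicates 1 and 3, -2.85 without si-NC replicate 2, -4.46 without si-NC replicates 1 and 3 (limma adjusted p = 0.0491, with the spread taken from si-SYISL alone) and -4.68 without si-SYISL replicate 2. Sorbs2, an adaptor that binds actin-associated proteins, had means of 457 in si-NC and 111 in si-SYISL and differed by -2.20 ± 0.57 (adjusted p = 0.165). The Sorbs2 value was -1.39 without si-NC replicate 2 and -2.99 without si-NC replicates 1 and 3 (limma adjusted p = 0.0126 on the same terms).

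**Figure D4:**
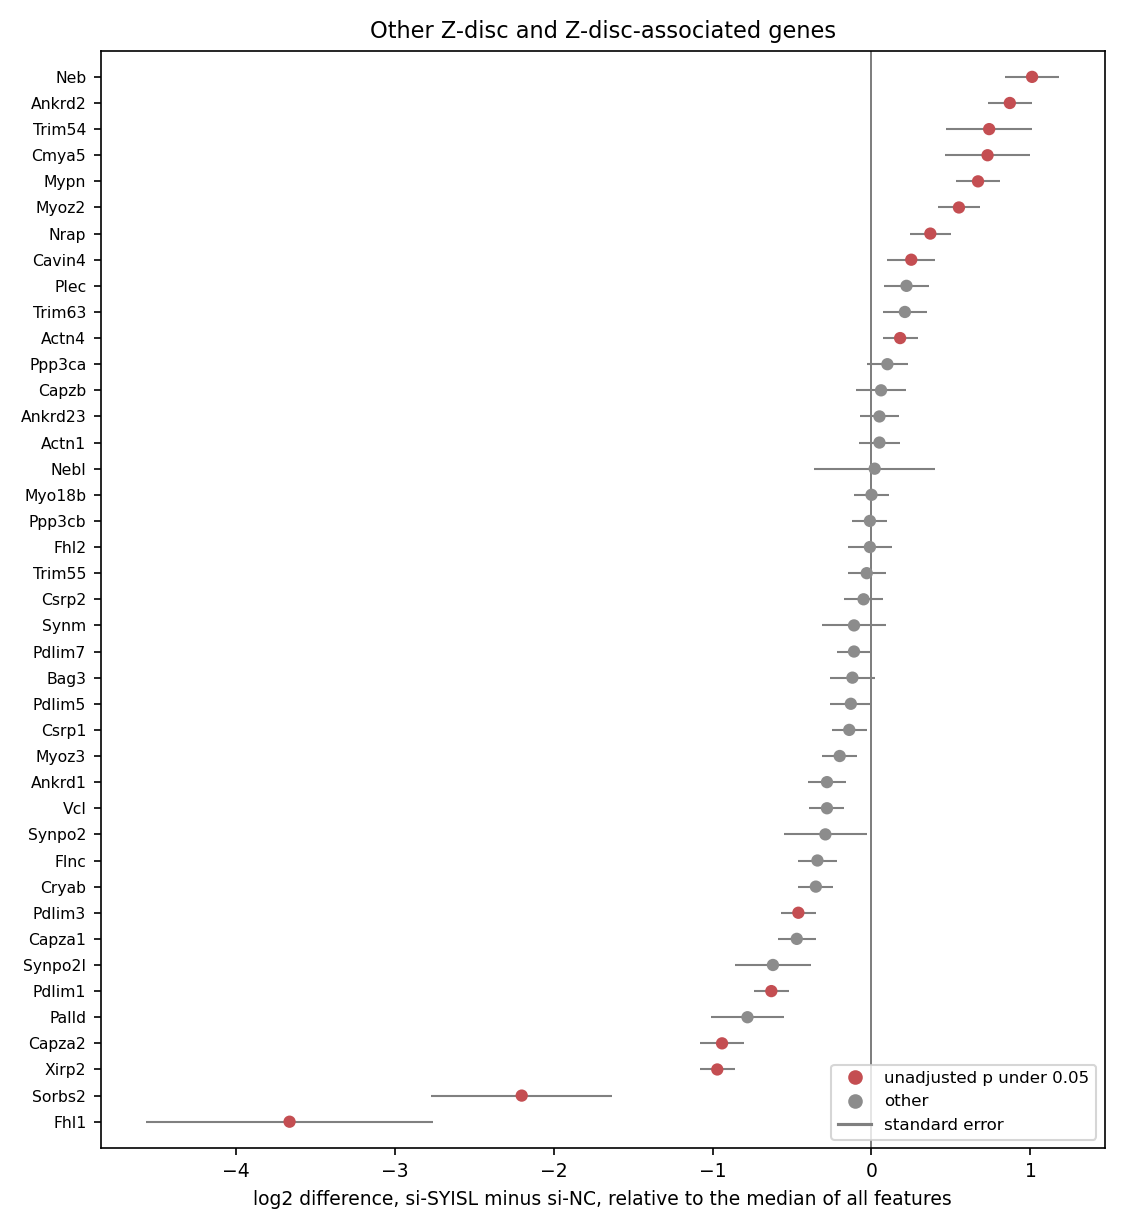
Log2 difference relative to the median of all features, with standard error, for the 41 other Z-disc and Z-disc-associated genes, ordered by value. Red points have an unadjusted p under 0.05 (9 higher, 6 lower), and none passed after adjustment over all features. Neb (1.01) is the highest, and Sorbs2 (-2.20) and Fhl1 (-3.66) are the lowest.

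Of the 9 myoblast and myotube markers, Myh3 (embryonic myosin heavy chain) differed by 0.62, Ckm (muscle creatine kinase) by 0.65 and Acta1 (skeletal actin) by 0.56. The regulators Myod1, Myf5, Myog and Mef2c were at -0.78, -0.29, -0.02 and 0.01, the adhesion protein Cdh15 at -0.19 and Des, itself a Z-disc member, at -0.07. None of these passed after adjustment over all features (limma adjusted p of 0.115 for Myh3, 0.123 for Ckm, 0.13 for Acta1, 0.131 for Myod1 and 0.540 or more for the rest).

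Across the 4 samples, the mean profile of the 8 measured members, each centred on its own mean, was -0.11 and -0.29 in si-NC and 0.27 and 0.13 in si-SYISL. The 5 named genes outside the set with the most similar profile were Sult5a1, Gsdmd, Cnih2, Map1s and Peli3, at root-mean-square distances of 0.007, 0.010, 0.015, 0.019 and 0.019 log2 units. These genes were picked for their nearness to that mean, and the members themselves lay 0.101 to 0.498 from it.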

How the data were processed

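The deposited scanner files give intensity (gProcessedSignal, background-subtracted by Feature Extraction, per the file headers) and flags of unit other, coded 0 or 1 for above background, saturation and outliers. The headers name version 11.0.1.1 of that program, while the submitters' processing notes name 10.5.1.1. In the series matrix the authors deposited log2 values for 34456 probes, whose columns correlate at 0.9997 or more with the scanner values after logs. Its median is 8.58 on every array. How the authors normalised it is not given in the sources used here, and it served as an alternative. Its differences lay close to those under quantile normalisation (1.01 and 1.01 for Actn2, 0.06 and 0.07 for Des), so these alternatives are not separate checks.

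Each array's 75th percentile was subtracted from log2 signals in R 4.3.3 (package data.table, version 1.17.8), and outlier and control spots were dropped. Repeated spots were averaged, and the RefSeq accession named the probes: 27234 received 1 symbol and 12195 none. A probe was kept when well above background on all 3 arrays of a group. The brightest kept probe represented a gene. This left 28555 features, 18635 named. Groups follow the labels. Arrays numbered 1 and 3 were averaged within each group, and limma 3.58.1 (lmFit, eBayes, two-sided) used 2 samples per group with 2 residual and 2.37 prior degrees of freedom. The script was tested on simulated data. The smallest signal well above background limits precision for dim probes, and the number of samples limits it for all. The genes and lists were chosen with earlier results of these data known.

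Named genes are the 9 members, the 6 other Z-disc genes with the smallest p, Actn1, Actn4, the 5 most similar profiles and the marker lists. The alternatives were normexp background, quantile and median normalisation, the series matrix, no filter or a filter on every array, every probe or the mean over them, a variance trend, array weights, blocks on replicate number or scan, 6 arrays as separate samples, and each sample left out. Normexp used median pixel intensities. Promoters were searched in Python 3.11.15 with pandas 2.3.3 and numpy 2.4.6, and figures drawn with matplotlib 3.10.9.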

Additional observations from a re-analysis of the deposited data

How the results depend on the processing

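With 2 samples per group and 2 residual degrees of freedom, the count past the adjusted threshold moved with several settings. Over all features it was 0 in the reported fit, 183 with normexp on median pixel intensities, 1 with a median shift, 904 with a variance trend, 83 with the scan as a block and 9762 with the 6 arrays as separate samples, which counts near-equal arrays as independent. It ran from 0 to 1379 with samples left out (1379 without si-NC replicates 1 and 3, 276 without si-NC replicate 2). Such fits leave 1 sample in an arm, so the other group supplies the spread and the lone sample is assumed to vary like it. Of the Z-disc members, 2 passed with the variance trend (Actn2 and Tcap) and 5 with 6 separate arrays (Actn2, Tcap, Ldb3, Myoz1 and Xirp1). Actn2 entered both fits only through its si-SYISL arrays, where it was higher, which limits what its passing shows. With samples left out, Actn2 differed by 1.11 (without si-NC replicates 1 and 3) to 1.31 (without si-NC replicate 2). Of the other Z-disc genes, 1 passed with normexp (Neb), 5 with the trend, 22 with separate arrays and 0 to 5 with samples left out (5 without si-NC replicates 1 and 3). The count of members lower at an unadjusted p was 1 in place of 0 with the median shift, the trend, the scan block and separate arrays. The members' median of 0.12 became 0.29 with no filter, -0.03 with a filter on every array, where Actn2 was not tested, 0.31 with every probe on its own, and 0.02 to 0.37 with samples left out (0.37 without si-NC replicates 1 and 3, 0.33 without si-SYISL replicate 2). Csrp3 was reversed to 0.02 under quantile normalisation and 0.01 in the series matrix. Des was reversed to 0.07 and 0.06 there, to 0.30 without si-NC replicates 1 and 3, and to 0.11 without si-SYISL replicate 2, in a range of -0.43 to 0.30 with samples left out. Actn1 was reversed to -0.01 without si-NC replicate 2 and -0.04 without si-SYISL replicates 1 and 3, in a range of -0.04 to 0.15. The cause of these changes was not tested. The labels do not say whether the replicate numbers pair the samples. The correlation of deviations was -0.03 over 28555 features, which cannot settle this for single genes. With the replicate block, 0 features and 0 members passed, and Actn2 differed by 1.20 with a limma adjusted p of 0.189. Among the members, that block lowered the SE most for Des (0.29 to 0.18) and Xirp1 (0.19 to 0.12), and raised it for Actn2, Ldb3 and Csrp3. Of the other named Z-disc genes, it lowered the SE most for Fhl1 (0.90 to 0.19) and Sorbs2 (0.57 to 0.31). It raised the SE for Xirp2, Mypn, Myoz2 and Actn4. With the block, the limma adjusted p was 0.189 for both Fhl1 and Sorbs2.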
